A study of Mus musculus with 11 samples.

Results

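The genes described here are 9 subunits of Polycomb repressive complex 1 (PRC1), taken by name from a table of 47517 gene rows: Rnf2, Ring1, Bmi1, Pcgf2, Phc1, Phc2, Cbx2, Cbx7 and Cbx8. All 9 were in the table, and all 9 had enough reads to be tested. They were read in 11 RNA-seq libraries of mouse forelimb buds at E10.5, on a C57BL/6 strain background. The 6 mutant libraries came from Gmnn f/f; Prx-Cre embryos, which carry a pair of floxed alleles of Gmnn, the gene for Geminin. The 5 control libraries came from Gmnn +/f; Prx-Cre embryos, so that controls carry the transgene and a floxed allele as well, and no library without Cre was analysed here. Prx-Cre drives recombination in limb mesenchyme, so that ectoderm, vessels and blood in the same bud keep their alleles. Mutants and controls were matched by litter and somite stage, and the 4 litters are named A to D. Litter A gave controls 1 and 2 and mutants 1 and 2, litter B gave control 3 and mutant 6, litter C gave control 4 and mutant 5, and litter D gave control 5 and mutants 3 and 4.

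PRC1 is a ubiquitin ligase of chromatin. Its RING subunit, Rnf2 (also called Ring1B) or Ring1 (Ring1A), attaches ubiquitin to histone H2A, and pairs with one Pcgf protein. In canonical PRC1 that partner is Pcgf2 (Mel18) or Bmi1 (Pcgf4). The core is joined by a Cbx protein, whose chromodomain binds the methyl mark that Polycomb repressive complex 2 (PRC2) places on histone H3, and by a Phc protein, which polymerises through its SAM domain and compacts chromatin. PRC1 is best known for keeping Hox genes silent outside their domains, and the title of the series places Geminin in Hox regulation of the limb. Geminin has been reported to bind the PRC1-associated protein Scmh1.

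Total counts ran from 14777833 to 19733288 in controls and from 14721181 to 17034741 in mutants. Gmnn was at 139.3 to 238.9 CPM (normalised read count, scaled to library totals by TMM) in controls and at 99.5 to 137.7 CPM in mutants, a log2 fold change of -0.67 (SE 0.10, edgeR quasi-likelihood test, adjusted p 0.0291), so that much of the transcript remained. The library with the highest Gmnn was control 5, at 238.9 CPM. Of the 4 forelimb mesenchyme markers none was called: Prrx1 and Tbx5 averaged 254.3 and 95.3 CPM in controls and 248.9 and 76.5 CPM in mutants, and Twist1 and Prrx2 averaged 54.2 and 41.2 CPM in controls and 65.7 and 49.3 CPM in mutants. The hindlimb gene Tbx4 averaged 3.23 CPM in controls and 2.17 CPM in mutants. Pitx1, the other hindlimb gene and too low to test, averaged 0.950 and 0.273 CPM. Their sum ran from 0.841 (control 5) to 6.80 CPM (control 2) in controls and from 2.015 to 2.91 CPM in mutants. Of the marker lists for other cells, only contractile muscle had genes called: all 4 had lower fitted values in mutants, and 3 were called. Summed levels of the 4 were 3.60 to 68.4 CPM in controls, highest in control 5, and 3.35 to 6.36 CPM in mutants. No gene was called in the lists for ectoderm (5 genes tested), endothelium (4), red cells (5), macrophages (5), muscle precursors (4) or neural crest (3). Their values were nonetheless not evenly spread: all 5 red cell genes and all 5 macrophage genes had higher fitted values in mutants (median log2 fold change 0.54 and 0.53), and all 3 neural crest genes had lower ones (median -0.48). The part of these cells in the differences below was not tested. Summed red cell markers reached 30440 CPM in mutant 2, against 6691 to 18880 CPM in controls. All 4 neural tube genes were too low to test, and Olig2 had no reads in any library.

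The levels of the 9 transcripts in control buds ran from common to barely detected. On a scale per length (RPKM, CPM per kilobase of exon), Rnf2 stood first at 33.5 ± 3.37 RPKM (SD, n = 5). Cbx2 followed at 15.8 ± 1.68, Pcgf2 at 14.3 ± 1.53, Phc1 at 12.5 ± 0.849 and Phc2 at 9.57 ± 1.24 RPKM (SD, n = 5). Bmi1 was at 3.80 ± 0.519, Cbx8 at 1.80 ± 0.518, Ring1 at 1.39 ± 0.208 and Cbx7 at 0.0863 ± 0.0401 RPKM (SD, n = 5). In this order Rnf2 was separate from Cbx2, Phc2 from Bmi1, Bmi1 from Cbx8 and Ring1 from Cbx7, in that no control library of the higher gene was as low as any of the lower. The libraries overlapped between each of the neighbours Cbx2, Pcgf2, Phc1 and Phc2, and between Cbx8 and Ring1. Rnf2 lay above 87.7% of all genes tested in controls and Cbx7 above 2.0%. The order in mutants was the same, from 26.0 ± 3.45 RPKM for Rnf2 to 0.0930 ± 0.0290 RPKM for Cbx7 (SD, n = 6). By CPM, with no length term, ranks 2 to 5 in controls went to Phc2, Cbx2, Phc1 and Pcgf2, and in mutants Phc1 stood above Cbx2.

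**Figure D1:**
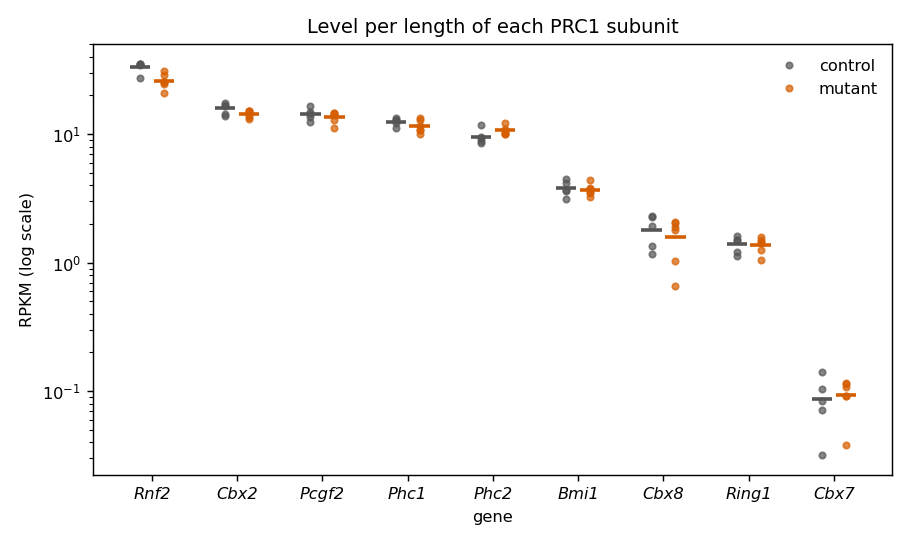
Level of each PRC1 subunit in RPKM on a log axis, genes ordered by their control mean, with 1 point per library (5 controls in grey, 6 mutants in orange) and a bar at the mean of each group. Rnf2 stands above the other genes and Cbx7 far below them, and the order is the same in both groups.

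The stretch upstream of the start is shown for 3 of the genes, because they span this range: Rnf2, its less abundant paralogue Ring1, and Cbx7, the lowest. The sequences are RefSeq's on GRCm38.p6 (mm10), 250 bases that end just before the annotated start, on the minus strand and written 5′ to 3′, with each CG dinucleotide in capitals. They are chr1:151500992-151501241 for Rnf2, chr17:34024681-34024930 for Ring1 and chr15:79932647-79932896 for Cbx7. The RefSeq start of Cbx7 lies well inside the span that the deposited annotation gives the gene, so that its window is upstream of a start other than the outermost one counted.
Rnf2: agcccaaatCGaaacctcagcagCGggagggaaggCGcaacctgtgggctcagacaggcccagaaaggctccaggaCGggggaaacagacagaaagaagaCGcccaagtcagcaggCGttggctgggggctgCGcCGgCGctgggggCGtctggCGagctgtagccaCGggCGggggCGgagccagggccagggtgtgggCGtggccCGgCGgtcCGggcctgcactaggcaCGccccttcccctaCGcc
Ring1: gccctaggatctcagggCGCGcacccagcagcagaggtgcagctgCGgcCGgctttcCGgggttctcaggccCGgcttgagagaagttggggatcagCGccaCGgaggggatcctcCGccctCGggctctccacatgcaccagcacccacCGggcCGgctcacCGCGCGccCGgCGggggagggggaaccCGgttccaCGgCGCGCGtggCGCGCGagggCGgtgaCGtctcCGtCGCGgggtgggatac
Cbx7: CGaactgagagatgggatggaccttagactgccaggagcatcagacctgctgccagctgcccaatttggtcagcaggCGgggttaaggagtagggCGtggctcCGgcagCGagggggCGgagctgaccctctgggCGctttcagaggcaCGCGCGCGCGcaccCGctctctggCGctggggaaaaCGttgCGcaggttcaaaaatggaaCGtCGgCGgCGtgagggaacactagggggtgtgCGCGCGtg
These windows hold 20, 30 and 23 CG, where the median over 32851 promoters of the same length was 6, and more than 82.1%, 94.1% and 86.7% of promoters respectively. The count of CG thus did not follow the level of the transcripts. TATAAA, searched on both strands, was in none of the 10 windows of the 8 members with an entry and in 12.4% of all promoters. CCAAT, also searched on both strands, was in the windows of Cbx7 and Cbx8 and in 2 of 3 windows of Phc2, and in 33.8% of all promoters.

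Between genotypes, no PRC1 subunit had an adjusted p under 0.05 over the 15821 genes tested, by the edgeR quasi-likelihood test in a model of litter and genotype. The same model called 2.18% of all genes, with 1.48% of all genes lower in mutants. At an unadjusted p under 0.05 there was 1 member, Rnf2, with a lower value in mutants. Of all genes, 21.4% reached that level and 11.5% did so with lower values in mutants. DESeq2 called 1 member, again Rnf2, and 10.1% of the genes it gave an adjusted p, which Cbx7 did not get. limma-voom called none, and 2.77% of all genes. Fitted log2 fold changes were below 0 for 7 members and above 0 for 2 (6 and 3 under upper-quartile scaling, where Bmi1 turned), with a median of -0.08 beside 0.0038 for all genes tested. The libraries of the 2 groups overlapped for every member, and they did not overlap for 2.59% of all genes. The mutant mean lay below the control mean in all 4 litters for 3 members (Rnf2, Cbx2 and Ring1), as it did for 13.5% of all genes, and above it in all 4 for none. For Ring1 these differences ran only from -8e-04 (litter A) to -0.0962 (litter C) on the log2 scale, where the SE of its fit was 0.14.

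**Figure D2:**
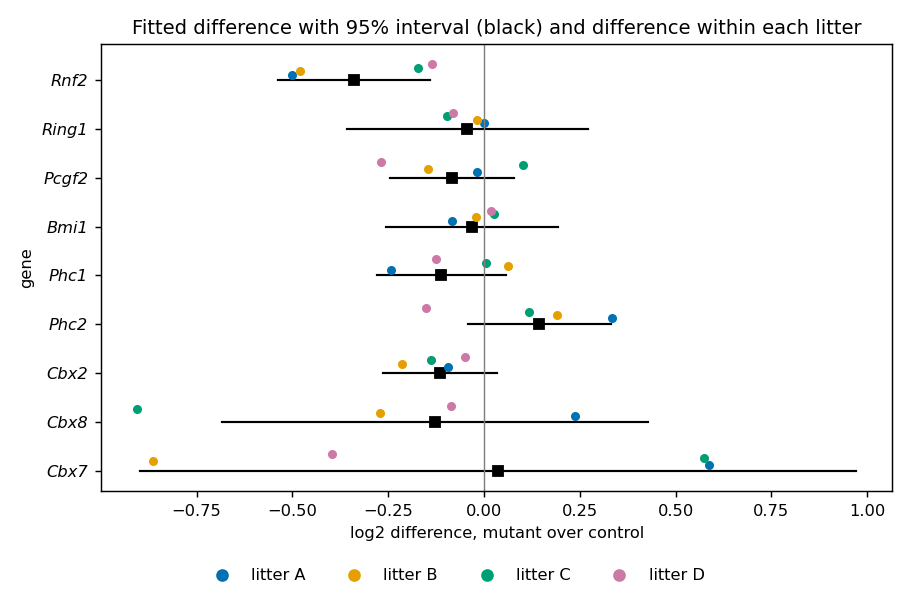
Log2 difference of mutant over control for the 9 members: black squares and lines are the fitted log2 fold change and its 95% interval, and coloured points are the difference of mean log2 CPM within each of the 4 litters. The interval of Rnf2 lies below 0, and the others include 0.

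Rnf2 encodes the main RING ligase of the complex in embryos (chromosome 1, 151458004 to 151500955, minus strand, mm10). Its level was 145.4, 141.7, 146, 144 and 113.4 CPM in controls 1 to 5. In mutants the lowest was 86.9 CPM (mutant 2), the median 105.1 and the highest 127.8 CPM (mutant 5). Control 5 thus lay among the mutants, while the other controls lay close together and above every mutant. Mutants differed from controls by -0.34 on the log2 scale (SE 0.09, unadjusted edgeR p 0.00291, adjusted p 0.0672), or 0.790 of the control level with a 95% interval of 0.689 to 0.907. It ranked 685th of 15821 genes by p. Within litters A to D the difference was -0.50, -0.48, -0.17 and -0.14 on the log2 scale. In an exact two-sided permutation of genotype within litters no other arrangement gave a mean difference as far from 0 (p 0.0139, the smallest the 72 arrangements can give, unadjusted for the 9 members tested).

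The Rnf2 call depended on the fit. It passed without control 5 (-0.40, edgeR adjusted p 0.0437) and with DESeq2 (-0.34, adjusted p 0.0121). It also passed without the filter on low counts (-0.34, edgeR adjusted p 0.00205). These fits called 5.41%, 10.1% and 5.35% of their genes. Without the filter the adjusted p of Rnf2 was below its unadjusted edgeR p with the filter, 0.00291, at nearly the same fold change. Hoxd12 went from an edgeR adjusted p of 0.506 to 4.54e-06, also at nearly the same fold change, so that this fit was less strict. Over all 24 alternatives the adjusted p of Rnf2 ran from 0.00205 to 0.959, and the sign was the same in each. Not all are separate checks. Litters B and C hold 1 library of each group, so that leaving out either library or the litter gives nearly the same fit. Control 5 is the only control of litter D, so that leaving it out takes that litter out of the comparison. Rnf2 was at -0.40 without control 5 and also without litter D, where it did not pass (edgeR adjusted p 0.0795). In whole buds, fewer cells that express Rnf2 and less Rnf2 RNA per cell cannot be told apart. Of the exon bases of Rnf2, 3.8% also lie in Trmt1l, and the counting command has no option to assign reads that overlap more than 1 gene.

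Ring1, the second RING ligase (chromosome 17, 34020792 to 34024680, minus strand), was low in every bud. Controls 1 to 5 had 4.87, 3.91, 4.91, 3.66 and 5.19 CPM, and mutants 3.42 to 5.17 CPM with a median of 4.67. Both ranges almost coincided, and the lowest library of each group came from litter C. Their log2 difference was -0.04 (SE 0.14, edgeR adjusted p 0.900), with a 95% interval of 0.780 to 1.21 in fold. Differences of Ring1 within that interval remain compatible with the data. Per length Rnf2 exceeded Ring1 by 24.7 ± 5.31 times in controls (SD, n = 5) and 19.5 ± 5.64 times in mutants (SD, n = 6). The lowest ratios, 14.5 to 17.2, were in mutants 2, 3, 4 and 6 and in control 5.

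**Figure D3:**
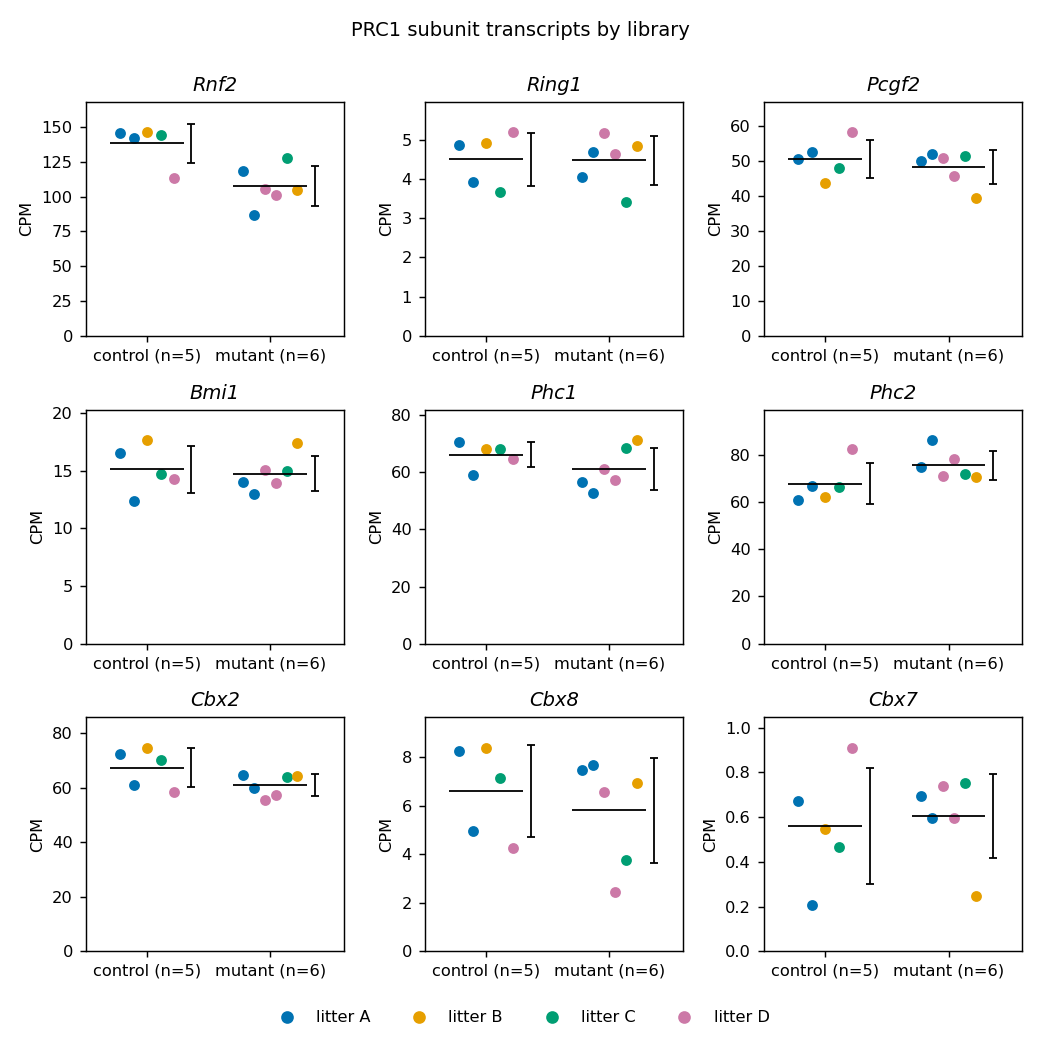
CPM of the 9 PRC1 subunits, 1 point per library and coloured by litter, with the group mean (line) and SD (bar) for 5 controls and 6 mutants on axes that start at 0. Control 5, the pink control point, lies among the mutants for Rnf2 and Phc2.

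Rnf2 and Phc2 also varied with a measure of the libraries that differed between the groups. This T-run index is the mean log2 CPM of the 959 genes tested whose longest run in GENCODE M21 transcripts has at least 18 T. The index was 4.72 to 4.82 in controls 1 to 4, 4.45 in control 5 and 4.63 in mutant 5. The remaining mutants lay at 4.26 to 4.54. The longest run in Rnf2 is only 9 bases, so that Rnf2 is not part of the index. Over the 11 libraries Pearson's r of log2 CPM with the index was 0.962 for Rnf2 (Spearman's rho 0.936), and 0.941 over 9 libraries without the 2 at the ends (control 1 and mutant 2). Only 0.973% of all genes tested had an r as high. Over the 6 mutants alone r was 0.895. These r are descriptions, since the points share genotype, litters and scaling. When the index entered the model, the log2 fold change of Rnf2 was -0.02 (edgeR adjusted p 0.959) and 2 genes in all were called, in place of 345. The part of the index in the Rnf2 difference was not tested.

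**Figure D4:**
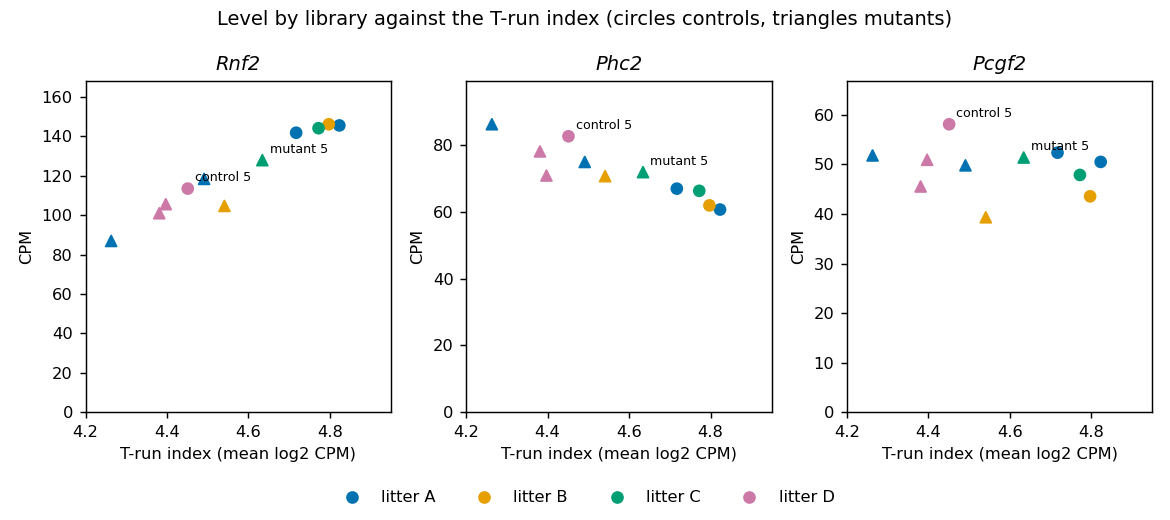
CPM of Rnf2, Phc2 and Pcgf2 in each library against the T-run index of that library, coloured by litter, with circles for 5 controls and triangles for 6 mutants. Rnf2 is higher and Phc2 lower in libraries of high index, and for both control 5 lies among the mutants on both axes. Pcgf2 has no such order over the 11 libraries (Pearson's r -0.181). Its r is -0.809 within the 5 controls and -0.252 within the 6 mutants.

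The Pcgf subunits set the type of complex. Pcgf2 (chromosome 11, 97688823 to 97700497, minus strand) was at 50.5, 52.4, 43.6, 47.9 and 58.1 CPM in controls 1 to 5, and at 39.3 to 51.8 CPM in mutants with a median of 50.4. The highest library was control 5 and the lowest mutant 6, and the rest of the 2 groups lay together between 43.6 and 52.4 CPM. The difference was -0.08 on the log2 scale (SE 0.07, edgeR adjusted p 0.564, 0.844 to 1.06 in fold). It was -0.02 without control 5, which leaves litter D with no control, and -0.05 without mutant 4. Bmi1, first known as a partner of Myc in lymphoma (chromosome 2, 18677018 to 18686629, plus strand), was at 16.6, 12.4, 17.7, 14.7 and 14.3 CPM in controls. In mutants it was at 12.97 to 17.4 CPM with a median of 14.5. Its log2 difference was -0.03 (SE 0.10, edgeR adjusted p 0.902; 0.838 to 1.14 in fold) and 0.0084 under upper-quartile scaling, and 2 litters had it higher and 2 lower.

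Phc1 and Phc2, the polyhomeotic subunits, had fitted differences of opposite sign, neither past the threshold. Phc1 (chromosome 6, 122317731 to 122340561, minus strand) was at 70.6, 59.2, 68.3, 68.3 and 64.5 CPM in controls 1 to 5 and at 52.7 to 71.3 CPM in mutants, with a median of 59.2. The highest mutant, mutant 6, was above every control. Its fitted value was -0.11 on the log2 scale (SE 0.08, edgeR adjusted p 0.438), with the mutant mean lower in litters A and D (-0.24 and -0.13) and at 0.06 and 0.0044 in litters B and C. Phc2 (chromosome 4, 128654702 to 128752881, plus strand) was at 60.6, 66.9, 61.9, 66.2 and 82.5 CPM in controls and at 70.6 to 86.1 CPM in mutants, with a median of 73.3. Control 5 alone among controls was as high as the mutants. For Phc2 the log2 fold change was 0.14 (SE 0.09, edgeR adjusted p 0.362), with 0.33, 0.19 and 0.12 in litters A to C and -0.15 in litter D. Without control 5, which leaves litter D with no control, it was 0.25 (edgeR adjusted p 0.107). Without mutant 2 it was 0.08 (edgeR adjusted p 0.606), and without litter A it was 0.03 (edgeR adjusted p 0.910).

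With control 5 left out, a choice made after its values were seen, the remaining libraries did not overlap for Rnf2 (141.7 to 146 CPM in controls) and Phc2 (60.6 to 66.9 CPM in controls), while 10.4% of all genes then had groups that did not overlap. Phc2 had a Pearson's r of -0.905 with the T-run index over the 11 libraries (Spearman's rho -0.909) and -0.826 without the same 2 libraries at the ends. With the index in the model its log2 fold change was -0.14 (edgeR adjusted p 0.603), the reverse in sign of the fit without it. For Phc1 the r was 0.711 (rho 0.664), it was 0.499 without those 2 libraries, and the fit with the index gave 0.04 (edgeR adjusted p 0.933). The part of the index in these differences was not tested.

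The Cbx subunits recruit canonical PRC1 to chromatin. Cbx2, which also compacts nucleosomes and whose loss in mice alters the axial skeleton and gonads (chromosome 11, 119022962 to 119031270, plus strand), was the main one. Its level was 72.3, 61.2, 74.7, 70.4 and 58.4 CPM in controls 1 to 5, and in mutants it was 55.5 to 64.7 CPM with a median of 61.9. Controls 1, 3 and 4 were above every mutant, and controls 2 and 5 were among them. Cbx2 differed by -0.12 on the log2 scale (SE 0.07, edgeR adjusted p 0.361; 0.832 to 1.02 in fold). It was -0.09, -0.21, -0.14 and -0.05 in litters A to D, and -0.03 (edgeR adjusted p 0.943) with the T-run index in the model. Its r with the index was 0.829 (rho 0.836), and 0.839 without control 1 and mutant 2.

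Cbx8, whose gene lies 5034 bases from Cbx2 (chromosome 11, 119036305 to 119040969, minus strand), varied more between libraries than its counting error. It was at 8.28, 4.94, 8.40, 7.15 and 4.27 CPM in controls 1 to 5, and at 2.44 (mutant 4) to 7.67 CPM (mutant 2) in mutants, with a median of 6.76. Low libraries occurred in both groups: controls 2 and 5 and mutants 4 and 5 were under 5 CPM, and they came from litters A, C and D. The coefficient of variation over the 11 libraries was 32.4%, where counting alone gives 10.7%. For Cbx2 the same values were 9.83% and 3.11%. For Cbx8 the log2 fold change was -0.13 (SE 0.26, edgeR adjusted p 0.820), with 0.24 in litter A and -0.91 in litter C, so that the interval, 0.623 to 1.35 in fold, left room for changes larger than that of Rnf2. The sign turned without control 4 (0.05) and without mutant 5 (0.05). These are the only libraries of litter C, so that leaving out either one takes that litter out of the comparison. The 2 values are thus not separate checks.

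Cbx7, the Cbx protein of embryonic stem cells (chromosome 15, 79915807 to 79971119, minus strand), had 4 to 13 reads per library, or 0.206 to 0.911 CPM. Its coefficient of variation of 36.4% was close to the 35.2% that counting gives. The group means were 0.560 ± 0.260 CPM (SD, n = 5) and 0.603 ± 0.188 CPM (SD, n = 6), with an edgeR adjusted p of 0.972. The 95% interval, 0.537 to 1.96 in fold, left room for changes of nearly 2-fold in either direction.

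In 3 of the 4 sets of paralogues 1 gene held most of the transcripts in both groups. The share of Rnf2 in the RPKM of Rnf2 and Ring1 was 96.0 ± 0.919% in controls (SD, n = 5) and 94.9 ± 1.18% in mutants (SD, n = 6). Pcgf2 made up 78.9 ± 3.72% of Pcgf2 and Bmi1 in controls and 78.5 ± 3.46% in mutants. Cbx2 made up 89.5 ± 1.68% of the 3 Cbx members in controls and 89.6 ± 3.36% in mutants. The Phc pair was the most even and the one whose group means lay farthest apart: Phc1 was 56.7 ± 4.04% in controls and 51.9 ± 4.64% in mutants. The change in the Phc1 share was -9.91 percentage points in litter A, -2.15 in litter B, -1.91 in litter C and 0.449 in litter D. Phc1 exceeded Phc2 per length in all 5 controls, from 1.04 times (control 5) to 1.55 times, and lay under it in mutants 2 and 4 (0.815 and 0.977 times). This order depends on the length term. By CPM, Phc2 was above Phc1 in controls 2 and 5 and in every mutant except mutant 6. The shares are descriptions and were not tested.

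**Figure D5:**
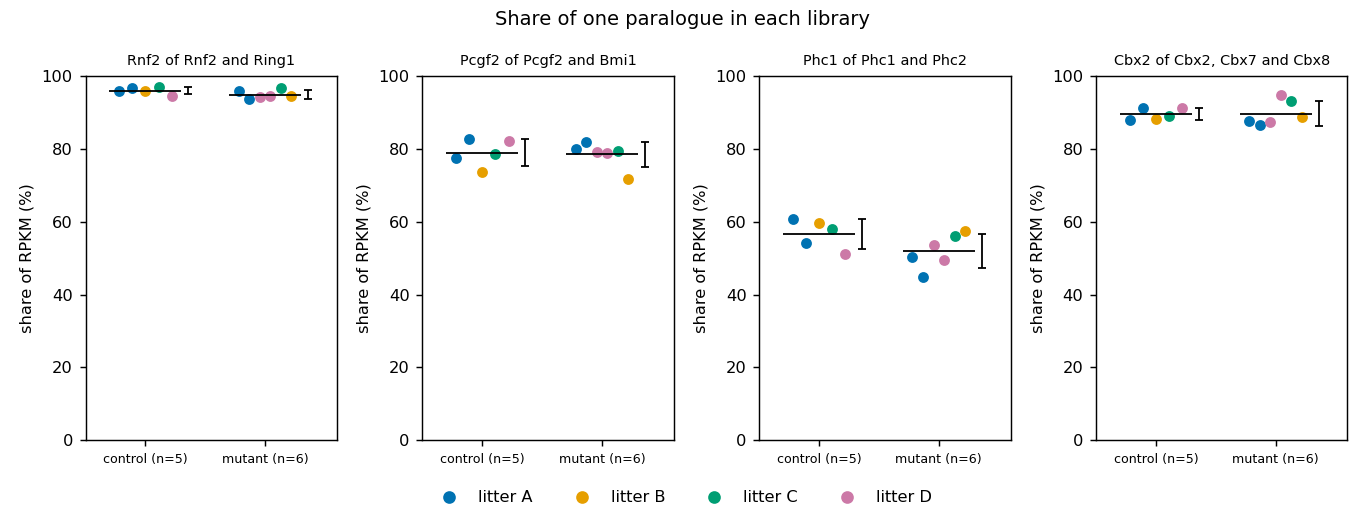
Share of 1 paralogue in the summed RPKM of its pair or trio, in percent from 0 to 100, 1 point per library coloured by litter, with group mean (line) and SD (bar) for 5 controls and 6 mutants. Rnf2, Pcgf2 and Cbx2 dominate their sets in every library, and Phc1 and Phc2 are near parity.

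Across litters, the edgeR test on the 3 litter terms called no member, and none reached an unadjusted p under 0.05, which 13.5% of all genes did. The lowest was Pcgf2 (unadjusted p 0.0576, adjusted p 0.382), and 0.0885% of all genes were called. The genotype by litter interaction called no member either and none at an unadjusted p under 0.05, with 0% of all genes called (edgeR, 605 genes at an unadjusted p under 0.05). The wider gaps of Rnf2 in litters A and B than in litters C and D were not called different by this test (unadjusted p 0.382, adjusted p 0.950), which rests on 3 residual degrees of freedom. Members with r over 0.7 in log2 CPM across the 11 libraries were Bmi1 with Phc1 (0.792) and Cbx2 with Rnf2 (0.732). Phc2 ran against Rnf2 (-0.843) and Cbx2 (-0.737). The neighbours Cbx2 and Cbx8 had an r of 0.568.

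Genes most like each member were sought by Pearson's r of log2 CPM over the 11 libraries, among genes with a mean of at least 5 CPM. Rnf2 had the closest ones: Casp2 (0.993), Peg12 (0.992) and Paip1 (0.991), of which Paip1 was called lower in mutants (log2 fold change -0.86, edgeR adjusted p 0.0462). Their longest T runs are 13, 28 and 33 bases. Phc2 was most like Pdap1 (0.966), Hdgf (0.962) and Naca (0.959), whose longest T runs are 7, 10 and 5 bases. For Cbx2 they were Hp1bp3 (0.965), Dzip1 and Kif15 (0.955 each), and for Cbx8 Trerf1 (0.937), Tnrc6b (0.909) and Tesk2 (0.900). For Bmi1 they were Slc30a4 (0.923), Eml4 and Fmnl2, for Pcgf2 Zfp830 (0.934), Kdelr3 and Mcrs1, and for Phc1 Ube4a (0.942), Slc38a1 and Far1. The low genes had looser matches, with at most 0.854 for Ring1 (Tmem218) and 0.854 for Cbx7 (Pex6). No member was among the 3 genes most like another, but Ring1 and Cbx7, with means under 5 CPM, were not among the genes searched.

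Of 23 further subunits of canonical and variant PRC1, all tested, edgeR and limma-voom called 0 and DESeq2 called 1. At an unadjusted edgeR p under 0.05 there were 4 (Yaf2, E2f6 and Fbrsl1 higher and L3mbtl2 lower). Of all genes, 21.4% reached that level, and DESeq2 called 10.1% of those it gave an adjusted p. The median log2 fold change of the 23 was -0.03. The extremes were Pcgf5, a variant PRC1 subunit, at -0.42 (SE 0.35) and E2f6, a DNA-binding repressor of the Pcgf6 complex, at 0.30 (SE 0.10, edgeR adjusted p 0.124). Yaf2, which takes the place of Cbx in variant complexes and is named after its values were seen, came as near the threshold as Rnf2, with the opposite sign. It was at 62.97 to 88.4 CPM in controls and 70.9 to 98.4 CPM in mutants, which differ by 0.25 on the log2 scale (SE 0.07, adjusted p 0.0697 by edgeR). Its mutant mean was above the control mean in 4 of 4 litters, as for 12.6% of all genes. DESeq2 called it (adjusted p 0.0273), as did edgeR without control 5 (0.30, adjusted p 0.0452), where litter D has no control. Its paralogue Rybp stood at -0.29 (SE 0.17, edgeR adjusted p 0.353). Scmh1, the reported partner of Geminin, averaged 20.6 ± 2.74 CPM in controls (SD, n = 5) and 20.3 ± 2.01 CPM in mutants (SD, n = 6), a log2 fold change of -0.03 (edgeR adjusted p 0.911). Cbx6 averaged 14.6 CPM in both groups, with a log2 fold change of 0.02 (edgeR adjusted p 0.942).

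Among 11 genes of PRC2, which writes the mark that Cbx proteins read, 0 were called by edgeR, DESeq2 or limma-voom. At an unadjusted edgeR p under 0.05, 2 were lower (Ezh1 and Rbbp4). Of all genes, 21.4% reached that level, 11.5% with lower values in mutants. The median log2 fold change of the 11 was 0.04, from -0.78 in Phf19 (SE 0.48) to 0.16 in Aebp2 (SE 0.08). The methyltransferase Ezh2 averaged 149.1 ± 10.2 CPM in controls (SD, n = 5) and 150.8 ± 7.84 CPM in mutants (SD, n = 6). Among 6 genes of the enzymes that remove ubiquitin from H2A, 2 (Mysm1 and Bap1) were lower at an unadjusted edgeR p under 0.05. Of the 6, edgeR and limma-voom called 0 and DESeq2 called 1, beside the 10.1% of genes that DESeq2 called in all. The gene called was Mysm1, an H2A deubiquitinase and the lowest of the list, at -0.44 (SE 0.13, edgeR adjusted p 0.0911), and the highest was Usp16 at 0.15 (SE 0.07).

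Classical targets of PRC1 were read beside its subunits. The cell cycle inhibitor Cdkn2a, which Bmi1 is known to repress, had 1 read over all 11 libraries, and Cdkn2b had 19, too few to test. Of the 39 Hox genes and these 2, 36 were tested and 0 called by edgeR. At an unadjusted edgeR p under 0.05, 4 were higher and 3 lower, a level that 21.4% of all genes reached. DESeq2 called 2, Hoxa11 (0.53, adjusted p 0.00511) and Hoxc6 (-0.87, adjusted p 0.0326), and limma-voom 1, Hoxa11 (0.52, adjusted p 0.0487). In the edgeR fit Hoxa11 was at 0.53 (SE 0.13, adjusted p 0.0546). Over all genes, DESeq2 called 10.1% of those it gave an adjusted p, and limma-voom 2.77%. The lowest target was Hoxc6 at -0.85 (SE 0.32, edgeR adjusted p 0.157) and the highest Hoxd12 at 0.76 (SE 0.60, edgeR adjusted p 0.506). The median of the targets was 0.0023.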

How the data were processed

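RNA-seq of 11 forelimb bud libraries was used. The deposited values are raw counts per gene name with an exon length per gene, which the authors made with featureCounts v1.4.6-p4 on mm10 and GENCODE M9 at a mapping quality of at least 10 and with no strand option, per the file headers. Reads were aligned with STAR 2.5.4b, per the submitters' processing notes. The header lists 12 alignment files and the table has 11 sample columns. Counting ignored strand, so that antisense reads are included. Whether a library holds 1 or both buds of an embryo is not given in the sources used here.

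Groups and litters came from the titles. Genes were filtered with filterByExpr (15821 kept), scaled by TMM and tested in edgeR 4.0.16 (R 4.3.3) by the quasi-likelihood F test on litter and genotype, two-sided, with Benjamini-Hochberg adjustment over all genes and a threshold of 0.05. Intervals are 95% from that fit. Log2 CPM used a prior count of 2. Single members were tested by exact permutation within litters (72 arrangements). The code was tested on simulated data. All 9 members are named. From the other lists the genes past the threshold were to be named, or else the highest and lowest, besides the 3 genes most like each member. Yaf2, Fbrsl1, L3mbtl2, Rybp, Scmh1, Cbx6, Ezh1, Ezh2, Rbbp4, Bap1, Hoxa11, Cdkn2a and Cdkn2b were named beyond that rule, after their values were seen. Members and lists were chosen with earlier results of these data known.

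The litters pair the samples, per the titles and the design text. Deviations from group means correlated at -0.16 to 0.37 (median 0.13) over 8 same-litter pairs of libraries and at -0.33 to 0.17 (median -0.02) over 22 others. Over the 25 within-group pairs of libraries the chi-square divided by its degrees of freedom was at least 6.88, so that none agreed within sampling noise. Alternatives were RLE and upper-quartile scaling, other filters, DESeq2 1.42.0, limma-voom (limma 3.58.1), no litter block, leaving ribosomal RNA, mitochondrial and haemoglobin genes out of the scaling, each library or litter left out, and the T-run index as a covariate, for which 15291 of the genes tested had a value in GENCODE M21 transcripts. RLE and upper-quartile scaling of the permutation tests were added after seeing the data.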

Additional observations from a re-analysis of the deposited data

Results flagged for a closer look

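Single libraries were set against their own genotype for the 9 members and Gmnn, 20 groups in all. The gap of 1 library to its nearest neighbour, over the range of the group, passed Dixon's 95% limit in 2 of them, and about 1 in 20 groups does so by chance. Rnf2 was lowest among controls in control 5, at 6.83 log2 CPM, where the other 4 controls held 141.7 to 146 CPM. Cbx7 was lowest among mutants in mutant 6, at -1.45 log2 CPM, which is 4 reads.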

How the results depend on the processing

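The number of genes called, 345, was 1566 without the filter on low counts, 550 when 1 CPM was required in 5 libraries, 1194 with DESeq2, 13 with no replicate block, and 2 with the T-run index in the model. It was 9, 3, 1 and 148 without litters A, B, C and D, and 1 (without control 4 or mutant 5) to 850 (without control 5) when 1 library was left out. Of the 11 such fits, only the one without mutant 2 (279 genes) stayed within 1.5 times of 345. The count of PRC1 members called was 1 in place of 0 without the filter, with DESeq2 and without control 5, each time Rnf2, and 0 to 1 over the fits that left out 1 library. Without litter D, whose only control is control 5, the count was 0. The fit with no replicate block, which drops the pairing by litter, called 0 members, with -0.36 (adjusted p 0.0687) for Rnf2.

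Rnf2, Cbx2, Pcgf2 and Ring1 kept their sign in all 24 alternatives, not all of them separate fits, with Rnf2 at -0.40 to -0.02. Signs turned in these fits, none of them past the threshold. Upper-quartile scaling gave 0.0084 for Bmi1, and mean differences of 0.0018 for Cbx7 and 0.0181 for Bmi1. The T-run covariate gave 0.13 for Bmi1, 0.0356 for Phc1 and -0.14 for Phc2. Without litter A, Cbx7 was at -0.27 and Bmi1 at 0.0082, and without litter C, Cbx7 was at -0.11 and Cbx8 at 0.0501. With 1 library left out, Bmi1 ran from -0.0796 to 0.0436, Cbx7 from -0.21 to 0.26 and Cbx8 from -0.29 to 0.0481. The cause was not tested. Of the other lists, targets called were 0 in the edgeR fit reported, 9 without the filter and 1 under upper-quartile scaling or 1 CPM. In these last 2 fits the target was Hoxa11 (edgeR adjusted p 0.0461 and 0.0469). H2A deubiquitinases called were 0, and 1 without the filter. The edgeR fit reported called 2.18% of all genes and the fit without the filter 5.35%. Upper-quartile scaling called 360 genes in all and the 1 CPM filter 550. Upper-quartile scaling moved the median of all genes from 0.0038 to 0.0426. Under 1 CPM in at least 5 libraries Cbx7 was not tested. Depth limits Cbx7 most, with 47 reads in all controls and 57 in all mutants. The edgeR p-values set the genotype difference against the variation between these embryos that remains once litter is fitted.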
